A study of Mus musculus with 3 samples.

Results

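Immediate early genes were examined in 3 epithelial lineages of the mouse stomach. The members are 10 genes, namely Fos, Fosb, Jun, Junb, Jund, Egr1, Atf3, Ier2, Ier3 and Gadd45b, out of 18193 genes named on the array. They were taken by gene symbol, with every probe set that names 1 gene, which gave 14 probe sets out of 34945. RNA of pit, parietal and zymogenic cells was hybridised to Affymetrix Mouse Genome 430 2.0 arrays, 1 array to a lineage. Pit cells are the mucous cells of the upper gastric unit, here cut from the 2 to 3 cell layers below the surface as cells stained for E-cadherin and not by the lectin DBA. Parietal cells secrete acid and were cut singly from the pit zone of the same units, before the pit cells, as autofluorescent cells stained by DBA. Zymogenic (chief) cells secrete digestive enzymes and were cut on separate slides from the unit base, as E-cadherin-stained cells without DBA or GSII staining, so that the zymogenic lineage and its slides cannot be told apart. Each array carried RNA amplified from a 20 ng pool, made from 3000 to 5000 cells of 4 to 5 mice, and the sources used here give no strain, age or treatment of the mice. A single array to a lineage allows neither replicate error nor a test, and every difference below describes these 3 arrays.

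Immediate early genes are transcribed within minutes of a stimulus, without new protein synthesis, when kinase cascades act on factors already bound at their promoters. Fos and Jun proteins pair through leucine zippers into the AP-1 factor, and EGR1 and ATF3 are further transcription factors of the same early wave. Their messages are short-lived, so that levels follow recent signals to the cell, including growth factors, injury and stress. In the gut epithelium several of them are known to respond to epidermal growth factor receptor signalling and to wounding.

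The stretches of 250 bases before the start sites of Fos, Jund, Ier3 and Gadd45b are shown because these are the members whose pit value exceeded both other arrays by 2-fold or more. They are from RefSeq, build GRCm38.p6, all on the plus strand, at chr12:85473640-85473889 for Fos, chr8:70697489-70697738 for Jund, chr17:35821463-35821712 for Ier3 and chr10:80929841-80930090 for Gadd45b. Capitals mark, on either strand, the letters TGACG, which are the core of cAMP response elements. They also mark the GC box, spelled GGGCGG, on either strand, and the TATA box, spelled TATAAA, on the strand shown.
Fos: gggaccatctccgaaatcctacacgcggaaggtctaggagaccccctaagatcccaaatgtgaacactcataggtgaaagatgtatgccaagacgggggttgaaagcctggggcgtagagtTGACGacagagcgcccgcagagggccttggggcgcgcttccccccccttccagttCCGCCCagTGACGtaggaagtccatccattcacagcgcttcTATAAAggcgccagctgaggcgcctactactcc
Jund: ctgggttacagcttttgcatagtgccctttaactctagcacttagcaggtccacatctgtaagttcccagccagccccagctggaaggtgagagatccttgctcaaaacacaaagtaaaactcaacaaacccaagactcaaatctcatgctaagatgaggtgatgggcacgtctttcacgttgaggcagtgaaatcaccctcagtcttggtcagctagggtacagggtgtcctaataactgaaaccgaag
Ier3: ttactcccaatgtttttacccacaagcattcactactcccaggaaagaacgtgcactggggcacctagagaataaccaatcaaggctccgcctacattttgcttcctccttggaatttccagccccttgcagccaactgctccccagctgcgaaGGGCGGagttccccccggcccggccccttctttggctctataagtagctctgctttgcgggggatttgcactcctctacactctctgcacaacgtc
Gadd45b: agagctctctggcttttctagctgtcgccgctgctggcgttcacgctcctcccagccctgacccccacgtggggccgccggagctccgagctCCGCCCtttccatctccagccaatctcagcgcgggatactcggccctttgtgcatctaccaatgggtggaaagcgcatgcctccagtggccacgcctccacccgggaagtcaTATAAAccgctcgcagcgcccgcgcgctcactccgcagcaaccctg
The RefSeq table held 8 of the 10 members, all but Egr1 and Ier2. TGACG lay in 4 of these 8 windows (Fos, Fosb, Junb and Atf3), against 17.8% of 32851 promoter windows of the same length. TATAAA lay in 2 of 8 (Fos and Gadd45b), against 7.59% of windows, and GGGCGG in 6 of 8, against 32.7%. The full element TGACGTCA, which holds TGACG, was in 0 of 8 (1.55% of windows), the AP-1 site TGANTCA in 0 of 8 (6.75%) and the CArG box, the site of serum response factor, in 0 of 8 (1.47%), each on either strand. Sites more than 250 bases upstream, and any site of Egr1 and Ier2, could not be seen here. A count of 0 therefore does not mean that these genes lack the site. Of the 4 members printed, Fos held all of the marked motifs, Gadd45b the TATA and GC boxes, Ier3 a GC box and Jund no match.

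Values are intensities on a linear scale as deposited, and a detection floor of 23.3 was used. It is the 95th percentile of 80 odorant and vomeronasal receptor probe sets on the array where that percentile was highest. Array medians were 4.64 in pit, 4.50 in parietal and 4.81 in zymogenic cells, and 2615 genes lay above the floor in pit, 2809 in parietal and 2282 in zymogenic cells. The mean of the 5 BioB and BioC spike-in controls was 712 in pit, 303 in parietal and 711 in zymogenic cells, an offset that touches each pit to parietal ratio below. The 2 Cre controls did not share this offset, at a mean of 9268 in pit, 9453 in parietal and 9117 in zymogenic cells. These lie near the array maxima, 11141 in pit, 12079 in parietal and 11325 in zymogenic cells. Which controls the gene values follow was not tested. Among lineage markers, 7 of 7 zymogenic ones exceeded both other arrays by 2-fold or more on the zymogenic array. Of 9 pit markers, the floor was exceeded by 9 in pit cells and by 9 in parietal cells, against 3 in zymogenic cells. Of 8 parietal markers, 2 were above the floor in pit, 5 in parietal and 4 in zymogenic cells. The pit markers did not share 1 order between these arrays: 3 of 9 (Psapl1, Krt20 and Muc5ac) exceeded both other arrays by 2-fold or more in pit cells and 2 of 9 (Gkn2 and Muc1) in parietal cells. Psapl1 was 27.1-fold, Krt20 20.4-fold and Muc5ac 2.88-fold higher in pit than in parietal cells, while Gkn2 was at 2723 in pit and 7987 in parietal cells and Muc1 at 42.5 in pit and 137 in parietal cells. Their summed intensities were 25732 in pit, 22583 in parietal and 242 in zymogenic cells. The pit sum rests mostly on Gkn1, Gkn2 and Psapl1, the parietal sum on Gkn1 and Gkn2, and the zymogenic sum on Ctse, Psca and Muc1. The part of pit markers in the members' parietal values was not tested.

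As deposited, each member above the floor on 2 arrays that included pit was higher in pit cells. Fos, Jund, Ier3 and Gadd45b were 2.52-fold to 3.83-fold higher in pit than in parietal cells, and Junb was 1.55-fold higher. In zymogenic cells Jund alone was above the floor. Once the arrays were scaled to the BioB and BioC controls, no member was 2-fold higher in pit than in parietal cells. The Fos family of AP-1 subunits was represented by Fos and Fosb. Fos stood at 70.1 in pit, 27.9 in parietal and 2.87 in zymogenic cells, the last under the floor. It was 2.52-fold higher on the pit than on the parietal array and at least 3.01-fold higher than on the zymogenic array. Fosb, which forms AP-1 with the same Jun partners, was at 2.14 in pit, 3.19 in parietal and 2.51 in zymogenic cells, under the floor on all 3, so that its order has no meaning.

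The Jun family members can pair with Fos proteins or with each other, and Jund is known as the subunit that is present in resting cells. Jund was the only member above the floor on all 3 arrays, at 670 in pit, 222 in parietal and 138 in zymogenic cells. That is 3.01-fold higher on the pit than on the parietal array and 4.84-fold higher than on the zymogenic array, and 1.61-fold higher on the parietal than on the zymogenic array. Its further probe set read 3.80 in pit, 4.48 in parietal and 3.41 in zymogenic cells, under the floor throughout, and could not bear on this. Junb stood at 46.6 in pit, 30.2 in parietal and 3.59 in zymogenic cells. It was 1.55-fold higher on the pit than on the parietal array, short of 2-fold, and at least 2.01-fold higher than on the zymogenic array. Jun was above the floor on the pit array alone, at 37.3, with 6.97 on the parietal and 12.8 on the zymogenic array. Its fold over either was at least 1.60. The further Jun probe set read 14.4 in pit, 7.39 in parietal and 5.75 in zymogenic cells, all under the floor.

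Egr1 is a zinc finger factor induced through serum response factor, and Atf3 is a stress-induced factor of the ATF and CREB family. Both lay just above the floor on the pit array and under it elsewhere. Egr1 was at 24.9 in pit, 6.60 in parietal and 5.32 in zymogenic cells. Atf3 was at 26.5 in pit, 15.0 in parietal and 10.8 in zymogenic cells. Against the floor these are folds of at least 1.07 and at least 1.14, which is too small for a difference between lineages to be read from either gene.

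Ier2, Ier3 and Gadd45b code for proteins that are not DNA-binding subunits of AP-1. Ier3, an early response protein that modulates cell survival, stood at 255 in pit, 85.0 in parietal and 4.54 in zymogenic cells. It was 3.00-fold higher on the pit than on the parietal array and at least 11.0-fold higher than on the zymogenic array. Ier3 was also at least 3.65-fold higher on the parietal than on the zymogenic array, and it was the 1 member 2-fold or more below both other arrays in zymogenic cells. Gadd45b, a stress sensor that acts on the p38 and JNK kinase cascades, was at 128 in pit, 33.5 in parietal and 13.2 in zymogenic cells. Its pit to parietal ratio, 3.83-fold, was the highest of the 5 members above the floor on both arrays, and it was at least 5.52-fold higher on the pit than on the zymogenic array. The Gadd45b probe set used carries a name ending that marks probes shared between transcripts. Its further probe sets read 12.7 and 13.0 on the pit, 2.86 and 10.1 on the parietal and 2.75 and 4.82 on the zymogenic array, all under the floor. Ier2, a short nuclear protein of growth factor responses, was at 27.3 in pit, 8.97 in parietal and 7.33 in zymogenic cells, a fold of at least 1.17 for pit over either of the others.

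**Figure D1:**
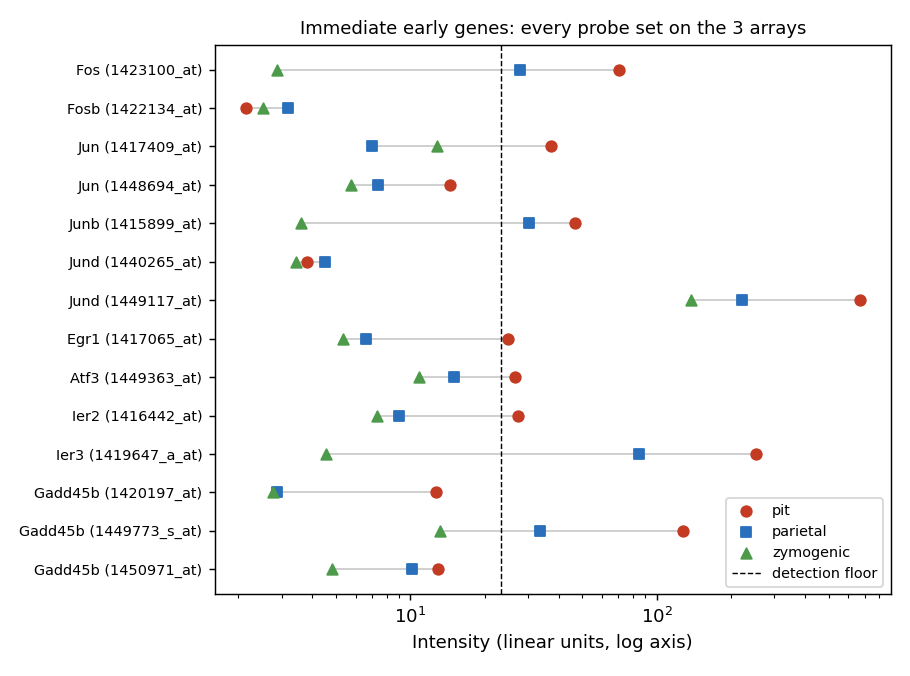
Intensity of each of the 14 probe sets of the 10 genes (rows) on the pit (circles), parietal (squares) and zymogenic (triangles) arrays, on a log axis in linear intensity units, with the detection floor of 23.3 as a dashed line; grey lines join the lowest and highest value. The pit value is above the floor for 9 probe sets, the parietal value for 5 and the zymogenic value for 1, Jund.

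Across the members, 9 of 10 were above the floor in pit, 5 in parietal and 1 in zymogenic cells. Jun, Egr1, Atf3 and Ier2 entered through the pit array alone and had to be highest there, so the order of the arrays is read only from members measured on both arrays of a pair. Of the 5 above the floor on both the pit and the parietal array (Fos, Junb, Jund, Ier3 and Gadd45b), 5 were higher on the pit array, against 45.4% of the 1983 genes so measured. Scaled to the BioB and BioC controls, 4 of 6 were, against 10.1% of 2146 genes, and Junb and Atf3 were lower in pit than in parietal cells. A pit value 2-fold or more above the parietal one was found for 4 of these 5, all but Junb, against 9.28% of the same genes. Among the 1983 genes, a pit to parietal ratio at least as high was held by 1.16% for Gadd45b, 2.57% for Jund, 2.67% for Ier3, 4.59% for Fos and 18.1% for Junb. On the zymogenic side only Jund was measured on both arrays, and 5.96% of 1275 genes had a pit to zymogenic ratio at least as high. The members were chosen with earlier results of these arrays known. The counts and shares in this paragraph therefore describe the members and do not set the list apart from other genes.

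Counted over all genes above the floor on at least 1 array, 4 of 9 members (Fos, Jund, Ier3 and Gadd45b) exceeded both other arrays by 2-fold or more in pit cells, against 5.78% of 4137 genes. All 9 members were above the floor in pit cells, but only 2615 of the 4137 genes were. A gene under the floor in pit cells cannot be counted, so 5.78% is too low a mark for these members. By the same 2-fold rule 0 of 9 stood out in parietal cells, against 7.47% of genes, and 0 of 9 in zymogenic cells, against 6.89%. Only 5 members were above the floor in parietal cells and 1 in zymogenic cells. The others could not be counted there, so these zeros say little of the members. Ier3, the 1 member 2-fold or more below both others in zymogenic cells, stands against 11.1% of genes. The members' median log2 ratio on floored values was 0.68 for pit over parietal (range 0.10 to 1.94), 1.0 for pit over zymogenic (0.10 to 3.45) and 0.26 for parietal over zymogenic (0 to 1.87), over 9 members. Over the 4137 genes the medians were 0 for pit over parietal, 0 for pit over zymogenic and 0.14 for parietal over zymogenic. Because the 9 members include the 4 that entered through the pit array, these medians describe the list and do not set it apart.

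**Figure D2:**
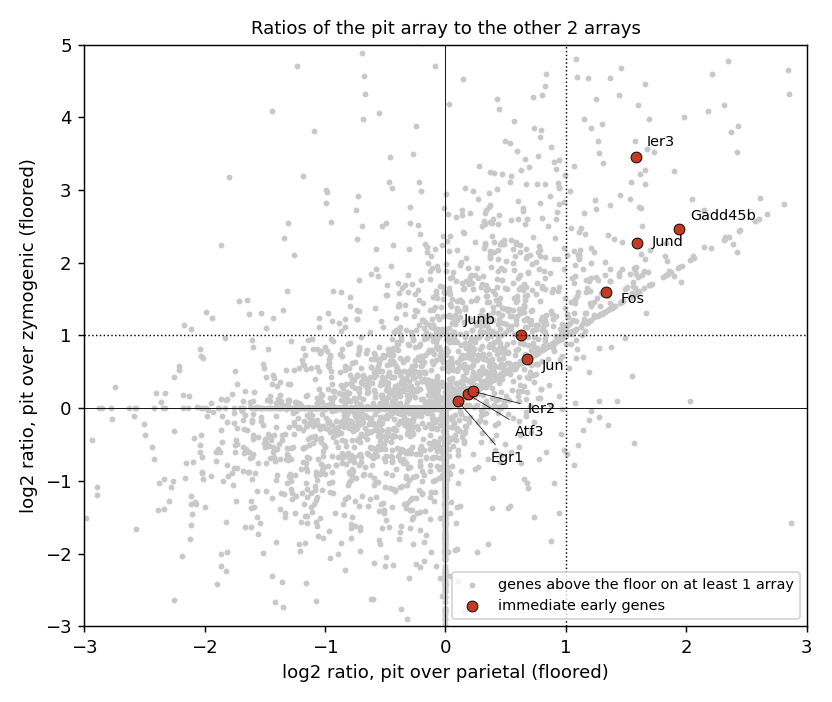
Log2 ratio of the pit to the parietal array (x) against that of the pit to the zymogenic array (y), on floored values, for genes above the floor on at least 1 array (grey; 104 of 4137 lie outside the axes) and for 9 immediate early genes (red); dotted lines mark 2-fold. Fos, Jund, Ier3 and Gadd45b lie past 2-fold on both axes, and Egr1, Atf3 and Ier2 lie near the origin.

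Where 1 gene had several probe sets above the floor, their log2 ratios between 2 arrays scattered with an SD of 0.48 (781 cases of a gene in an array pair). The pit to parietal log2 ratio was 4.06 of these SDs for Gadd45b, 3.33 for Jund, 3.32 for Ier3, 2.79 for Fos and 1.32 for Junb. This scatter lies within the same RNA samples and holds nothing of the spread between mice or dissections. It comes from genes with several probe sets above the floor, whereas each of these members had 1. Scatter close to the floor, where the parietal values of Fos, Junb and Gadd45b lay, was not measured apart. The ratios in SDs therefore do not say how precisely these members were measured.

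The pit to parietal ratios moved with the scaling between arrays. After quantile normalization the log2 ratio was 2.11 for Gadd45b, 1.79 for Jund, 1.78 for Ier3 and 1.44 for Fos, the last now against the floor. Scaled to the BioB and BioC controls, which raises the parietal array, the ratio was 0.71 for Gadd45b, 0.36 for Jund, 0.35 for Ier3 and 0.098 for Fos, none past 2-fold, and Junb was lower on the pit than on the parietal array at -0.61. That scaling moved the median of genes above the floor on both arrays to -1.10, against -0.086 as deposited. Relative to that median, the log2 ratio was 1.80 for Gadd45b, 1.45 for Jund, 1.45 for Ier3, 1.19 for Fos and 0.49 for Junb, against 2.02 for Gadd45b, 1.68 for Jund, 1.67 for Ier3, 1.42 for Fos and 0.71 for Junb as deposited. The pit to zymogenic ratios of the 4 genes stayed past 2-fold in both scalings, for example 1.73 after quantile normalization and 2.27 with the controls for Jund.

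**Figure D3:**
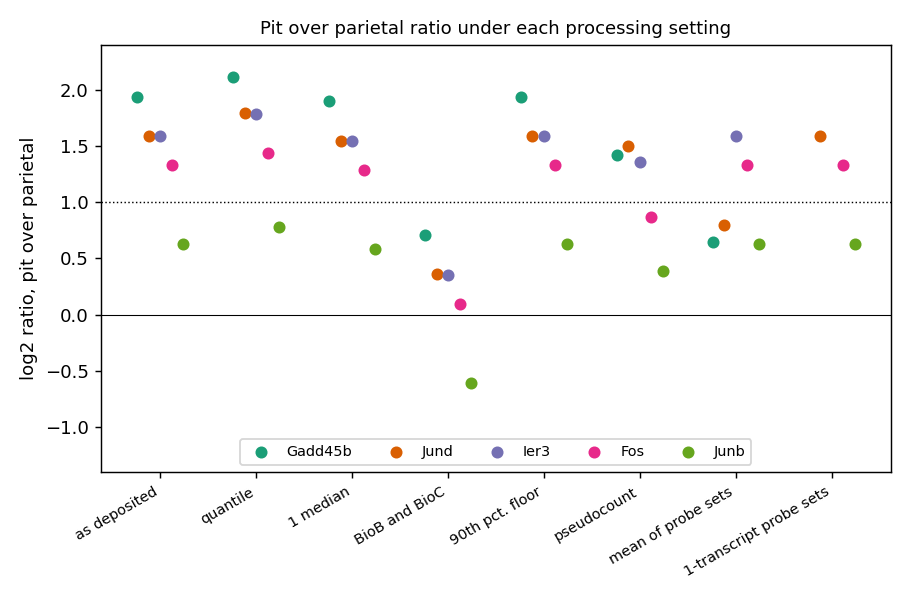
Log2 ratio of the pit to the parietal array (y) for Gadd45b, Jund, Ier3, Fos and Junb under each processing setting (x), with 2-fold as a dotted line; a gene with no probe set above the floor in a setting has no point. With the BioB and BioC controls none of the 5 genes is past 2-fold and Junb is at -0.61.

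Other genes of the early response were taken from a list of 52, of which 18 were above the floor on at least 1 array. The list was drawn up with earlier results of these arrays known, and Mxd1, Btg1 and Cdkn1a were already known to be high on the pit array. Of the 18, 5 exceeded both other arrays by 2-fold or more in pit cells, against the 5.78% above. Because genes known to be high in pit cells were put on the list, this count does not set the list apart from that share. The Btg1 and Socs3 probe sets used were above the floor on the pit array alone and had to be highest there. Mxd1, a MAX partner that opposes MYC, was at 585 in pit, 81.5 in parietal and 11.7 in zymogenic cells. Cdkn1a, the p21 inhibitor of the cell cycle, was at 508 in pit, 102 in parietal and 99.2 in zymogenic cells. Both were more than 4-fold higher in pit cells than on either other array. Btg1, an antiproliferative protein, was at 116 in pit, 22.8 in parietal and 18.9 in zymogenic cells, but a further probe set read 42.0 in pit, 17.1 in parietal and 36.7 in zymogenic cells. Socs3, an inhibitor of cytokine signalling, was at 88.9 in pit, 17.6 in parietal and 5.57 in zymogenic cells. Fosl2, the AP-1 subunit FRA2, was at 100.3 in pit, 46.8 in parietal and 4.67 in zymogenic cells, while its further probe set was above the floor on the zymogenic array alone, at 23.9. The further probe sets of Mxd1, Cdkn1a and Socs3 were under the floor on all 3 arrays. When a gene's probe sets were averaged, 1 of the 18 exceeded both other arrays by 2-fold or more in pit cells, against 2.45% of genes in that setting.

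The early genes did not all follow that order. Klf4, a factor of surface epithelial differentiation, was at 159 in pit, 194 in parietal and 9.23 in zymogenic cells, but its further probe set had the pit value above the parietal one, at 68.6 in pit, 53.7 in parietal and 3.56 in zymogenic cells. Nfkbia, the feedback inhibitor of NF-kB, was at 153 in pit, 196 in parietal and 48.7 in zymogenic cells. Of its further probe sets, 1 read 33.9 in pit, 42.2 in parietal and 9.74 in zymogenic cells, and 1 was above the floor in pit cells alone, at 31.5. Sgk1, a kinase induced by serum and glucocorticoids, was at 15.0 in pit, 234 in parietal and 10.2 in zymogenic cells. Above the floor on the parietal array alone, it was the 1 gene of 18 that exceeded both other arrays by 2-fold or more there (7.47% of genes). Cebpd, a bZIP factor of inflammation, was the 1 gene of 18 that was 2-fold or more below both other arrays in pit cells (2.61% of 4137 genes), at 11.6 in pit, 48.8 in parietal and 71.4 in zymogenic cells. Over the 18 genes, the median log2 ratio was 0.025 for pit over parietal and 0.93 for pit over zymogenic. The first was 0.41 on quantile-normalized arrays and turned to -0.27 on arrays scaled to the controls, where 24 genes were above the floor. The second was 0 on arrays scaled to the controls and 0.43 when a gene's probe sets were averaged. Dusp1, a phosphatase that ends MAP kinase signals, was above the floor on the pit array alone, at 43.1, with 4.28 on the parietal and 9.04 on the zymogenic array.

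**Figure D4:**
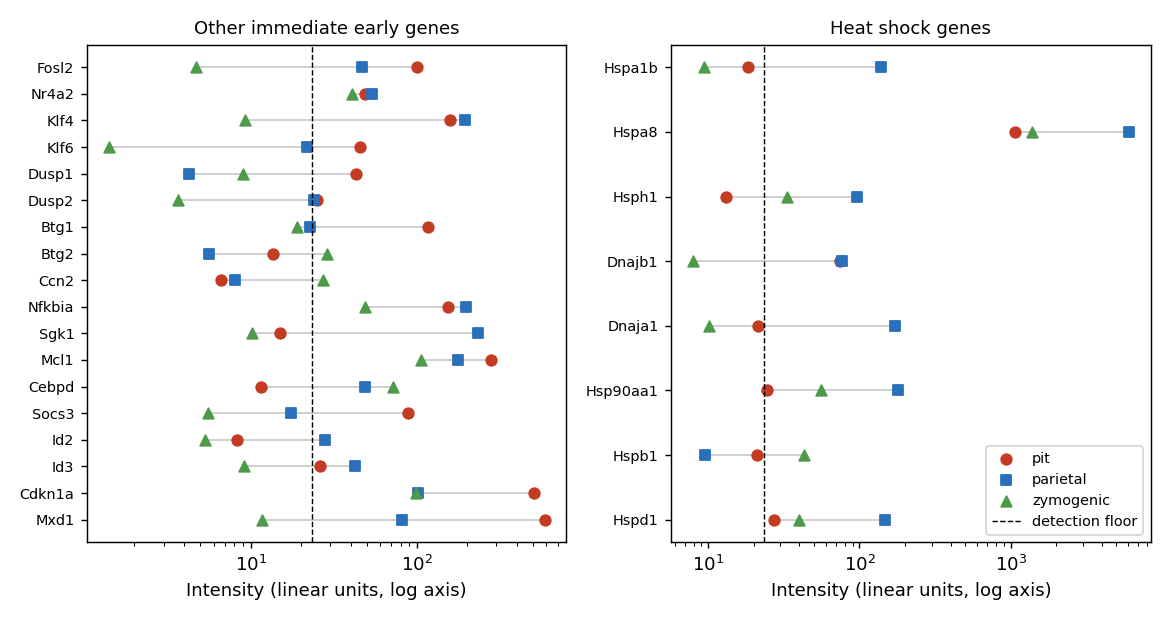
Intensity on the pit (circles), parietal (squares) and zymogenic (triangles) arrays, on log axes in linear intensity units, of the 18 other immediate early genes (left) and the 8 heat shock genes (right) above the floor of 23.3 (dashed line) on at least 1 array. Mxd1, Cdkn1a, Btg1, Socs3 and Fosl2 are highest on the pit array, while 7 of the 8 heat shock genes are highest on the parietal array.

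Heat shock genes answer protein damage through another transcription factor, HSF1. Values 2-fold or more above both other arrays were found for 0 of 8 in pit cells, against 5.78% of genes, and for 6 of 8 in parietal cells, against 7.47% of genes. Hspa1b and Dnaja1, of these 6, were above the floor on the parietal array alone and had to be highest there. Of the 8 genes, 7 were above the floor in parietal cells but 4 in pit cells. Those under it in pit cells could not be counted there, and 7.47% is too low a mark for the parietal count. This list too was drawn up with earlier results of these arrays known, so the counts do not set it apart. Hspa8, the constitutive HSP70, was at 1070 in pit, 6033 in parietal and 1387 in zymogenic cells. Hsp90aa1 was at 24.3 in pit, 181 in parietal and 55.7 in zymogenic cells. The median log2 ratio of the 8 was -2.47 for pit over parietal, -2.04 on quantile-normalized arrays and -3.09 on arrays scaled to the controls, where 11 genes were above the floor. When a gene's probe sets were averaged the median was -1.07, and 4 of 8 rather than 6 exceeded both other arrays by 2-fold or more in parietal cells, against 3.65% of genes in that setting. Transcript-specific probe sets left 3 genes, 2 of them past 2-fold in parietal cells.

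Of 19 dimerising partners of the bZIP class, 18 were on the array and 7 above the floor. Batf, which pairs with Jun proteins, was at 868 in pit, 489 in parietal and 11.8 in zymogenic cells. It was at least 37.3-fold higher on the pit than on the zymogenic array but 1.77-fold higher than on the parietal array. Atf4 was at 126 in pit, 116 in parietal and 105 in zymogenic cells. Nfe2l2, the antioxidant factor NRF2, was at 23.3 in pit, 139 in parietal and 13.6 in zymogenic cells. The partners thus did not share 1 order: Fosl2 exceeded both other arrays by 2-fold or more in pit cells, Nfe2l2 in parietal cells and Atf5 in zymogenic cells. Each is 1 of 7, against 5.78% of genes in pit, 7.47% in parietal and 6.89% in zymogenic cells, and the further Fosl2 probe set described above did not share the pit order. Atf5 was above the floor on the zymogenic array alone and had to be highest there.

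Kinases and factors upstream of the early genes were counted in the same way. Of 33 listed, 23 were analysed here and 10 were above the floor. Of these 10, 0 were 2-fold or more above both other arrays in pit cells, against 5.78% of genes. At that share, 10 genes are too few for the count to set the list apart. Srf, serum response factor, was at 29.5 in pit, 20.3 in parietal and 19.3 in zymogenic cells. Mapk14, the p38 kinase, was at 87.2 in pit, 94.8 in parietal and 49.9 in zymogenic cells. Map2k1, the kinase MEK1, was at 73.2 in pit, 65.8 in parietal and 15.5 in zymogenic cells, and was the 1 gene of 10 that was 2-fold or more below both other arrays in zymogenic cells, against 11.1% of genes. Egfr, the receptor for epidermal growth factor, was at 20.1 in pit, 30.2 in parietal and 76.0 in zymogenic cells, the 1 gene of 10 that exceeded both other arrays by 2-fold or more in zymogenic cells (6.89% of genes), but 2 further probe sets were above the floor on the pit array alone, at 34.8 and 27.6. Of 16 genes of message decay, 4 were above the floor and 0 were 2-fold apart from both other arrays. Over all genes, 5.78% were above both others in pit, 7.47% in parietal and 6.89% in zymogenic cells, so 4 genes are too few to read. Elavl1, a stabiliser of AU-rich messages, was above the floor on the pit array alone, at 44.7, with 11.0 on the parietal and 5.12 on the zymogenic array. It had to be highest there. Of the 4 genes, 1 was highest in pit, 2 in parietal and 1 in zymogenic cells. The part of Elavl1 in the members' values was not tested.

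Markers of other cells that also carry early genes were read beside these values. Of 8 immune markers, 2 were above the floor in pit, 3 in parietal and 4 in zymogenic cells, and their summed intensity was 113.5 in pit, 272 in parietal and 267 in zymogenic cells. Of 7 stromal markers, 2 were above it in pit, 5 in parietal and 4 in zymogenic cells, and the sum was 181 in pit, 405 in parietal and 324 in zymogenic cells. Of 6 endocrine markers, 1 was above it in pit, 0 in parietal and 5 in zymogenic cells. Endothelial markers (0 of 4) and blood markers (0 of 2) were under the floor on all 3 arrays. Ptprc, the leukocyte antigen CD45, was under the floor at 2.81 in pit and 3.04 in parietal cells and just above it, at 23.7, in zymogenic cells. Other immune markers went another way. Cd74 was at 63.1 in pit, 166 in parietal and 119 in zymogenic cells, and Laptm5 at 27.1 in pit, 66.9 in parietal and 51.9 in zymogenic cells. Of the 5 immune markers above the floor on at least 1 array, 3 were highest in parietal and 2 in zymogenic cells. The part of these markers in the members' values was not tested. In pooled cells, a smaller number of cells with a message and less message in each cell cannot be told apart. For beta-actin, the control probe set at the 3′ end over that at the 5′ end gave 9.04 in pit, 26.1 in parietal and 14.7 in zymogenic cells, with the 5′ value under the floor on the zymogenic array, and its part in the members' values was not tested.

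Among 1183 other genes above the floor on all 3 arrays, 5 were closest to the members' median profile (0.54 on the pit, -0.084 on the parietal and -0.46 on the zymogenic array, as log2 values centred on each gene's mean over the 3 arrays). They were Golga2, a Golgi matrix protein, Mettl21a, a methyltransferase, Ctrb1, a chymotrypsinogen, Kdelr1, a receptor that returns proteins to the endoplasmic reticulum, and Vegfa, an angiogenic growth factor. Their Euclidean distances on the log2 scale were 0.011 to 0.080 over the 3 arrays. Vegfa was at 66.6 in pit, 41.6 in parietal and 30.7 in zymogenic cells. With 3 points to a profile, many genes lie close to any shape.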

How the data were processed

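The series has 1 array of each of 3 lineages. The intensity values are those the authors deposited, 1 per probe set and array on a linear scale. In the sources used here it is not given how probes were summarised, corrected for background and scaled. The design text speaks of total RNA and the molecule label of nuclear RNA, which the values cannot settle.

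Of 45101 probe sets, 34945 name 1 gene in the platform table, after 64 controls were left out, and 932 naming several genes were not used. Symbols of 34741 were updated through a RefSeq table of GRCm38.p6. A gene's value is that of its probe set with the highest mean. Values under the floor of 23.3 were raised to it before log2, and a fold against the floor is a lower bound. Called means at least 2-fold above or below both other arrays. The members, gene lists and settings were chosen with earlier results of these data known. The genes named beyond the members are those of fixed lists past 2-fold, up to 8 a list, the brightest 3 of a list, and the 5 of most like pattern. Dusp1, Elavl1, Srf and Ptprc were added as examples after their values were seen. List genes not on the array table are not analysed here.

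Alternatives were quantile normalization, scaling to 1 median or to the BioB and BioC controls, floors at the 90th and 99th percentile, a pseudocount, the mean over probe sets, only probe sets with no letter before the name ending, and calls at 1.5-fold or 4-fold. Python 3.11.15, numpy 2.4.6, pandas 2.3.3 and matplotlib 3.10.9 were used, and the calls were tested on simulated data. The number of arrays limits the precision.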

Additional observations from a re-analysis of the deposited data

How the results depend on the processing

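No paired analysis was possible because each lineage has 1 array. The count of members that exceeded both other arrays by 2-fold or more in pit cells was 4 as deposited. It was 0 with the BioB and BioC controls (0.798% of all genes in that setting), 7 with the floor at the 90th percentile (4.86%), 2 with the mean over probe sets (Fos and Ier3; 2.45%), 2 with transcript-specific probe sets (Fos and Jund; 5.69%) and 0 with a 4-fold threshold (0.894%). The mean takes in probe sets under the floor, and the controls raise the parietal array by construction. The transcript-specific setting has no probe set for Ier3 and for Gadd45b uses one under the floor, which left 7 members above it. With the 90th percentile floor, the median log2 ratio of the members was 1.33 for pit over parietal and 2.09 for pit over zymogenic, and with the controls it was 1.37 for parietal over zymogenic. In that last setting the ratio of the pit array to the higher of the others was turned for Junb, at -0.61, and for Atf3, at -0.41. No member was 2-fold higher on the parietal or zymogenic array than on both others in any setting run that left a member above the floor. The floor at the 99th percentile (868) left 0 members above it and gave no value. For the medians and single genes, a move was counted when it exceeded the scatter between probe sets, 0.48 on the log2 scale. Of 48 alternative values that answer a comparison 40 moved less than this or, for counts, by at most 1.5 times, and 8 moved more. The 40 include each parietal and zymogenic count, always 0, where 5 and 1 members were above the floor as deposited. The pit count did move in the settings listed above, so the 40 do not speak for it. Intensities near the floor limit Jun, Egr1, Atf3 and Ier2, whose folds are bounds set by the floor. They also limit the pit to parietal ratios of Fos, Junb and Gadd45b. Their parietal values, 27.9 for Fos, 30.2 for Junb and 33.5 for Gadd45b, lay close above the floor of 23.3. Every fold against the zymogenic array but that of Jund is a bound as well.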
